A study of Mus musculus with 8 samples.

Results

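The proteasome genes of the mouse pituitary were followed here in bulk mRNA sequencing of whole glands. Members were all gene rows whose symbol begins with Psm, then a letter from a to g and a number, which gave 54 of the 49585 rows listed for each library. Of these, 31 encode constitutive subunits of the core and regulatory particles, and 5 are the interferon-inducible members Psmb8, Psmb9, Psmb10, Psme1 and Psme2. The other 18 are 7 assembly chaperones, the activators Psme3 and Psme4, the inhibitor Psmf1, the tissue-restricted core subunits Psma8 and Psmb11, Psmc3ip, Psme2b and 4 pseudogenes. The rule used symbols only and no measured value.

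Old pituitaries came from mice of 18 to 24 months and young pituitaries from mice of 2 to 3 months, all wild-type (WT) C57BL/6, with 4 libraries per age. No mutation, transgene or treatment was named for either age. The sources used here do not say that each library came from a separate mouse, so p-values measure the spread between libraries. The libraries held 16098530 to 19272104 fragments in old pituitary and 15042321 to 20429604 in young pituitary. The 7 hormone genes that define the gland took 9.05 to 11.6% of the fragments in old and 12.0 to 14.1% in young libraries. Ribosomal RNA repeat genes took 33.8 to 38.1% and 33.8 to 40.3%. Values are FPKM (fragments scaled to exon length and to the library total), which the authors computed. Old and young were compared with limma on log2(FPKM + 0.1), which understates the change of low genes.

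The proteasome is the main protease of the cytosol and nucleus, and it degrades proteins that carry ubiquitin chains. Its core particle is a barrel of alpha and beta rings, in which 3 beta subunits carry the active sites, and the regulatory particle recognises, unfolds and feeds in the substrate. In immune cells, and in other cells after exposure to interferon gamma, Psmb8, Psmb9 and Psmb10 replace Psmb5, Psmb6 and Psmb7 in newly built cores. These cores, the immunoproteasome, favour peptides that fit MHC class I molecules, and the activator made of Psme1 and Psme2 can cap them.

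Promoter windows were examined first because interferon gamma acts through defined sequence elements. RefSeq windows on GRCm38.p6, each of 300 bases with 250 before and 50 after an annotated start, were found for 42 of the 54 members. The interferon-stimulated response element was searched as the core GAAANNGAA, the gamma-activated sequence as TTCNNNGAA, and the antioxidant response element as TGACNNNGC. The last is the kind of element through which Nfe2l1 raises constitutive subunits when proteasome activity is low. Both strands were read, and no printed match of one motif overlapped another. Of all 32851 windows, 8.56% held the interferon-stimulated response element, 8.30% the gamma-activated sequence and 12.4% the antioxidant response element. Among the 5 inducible members, Psme1 held the interferon-stimulated response element and Psmb8 the gamma-activated sequence. Of 25 constitutive subunits with a window, 4 held the interferon-stimulated response element (Psmb3, Psmb4, Psmc2 and Psmd4) and 1 the gamma-activated sequence (Psmd2). The antioxidant response element stood in 4 of these 25, Psmb5, Psmb6, Psmc6 and Psmd12, and in 0 of 5 inducible members. Matches are descriptions of the letters in the window only.

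The windows of Psmb8 (chr17:34197945-34198244, plus strand), Psme1 (chr14:55578244-55578543, plus strand), Psmb5 (chr14:54617946-54618245, minus strand) and Psmb6 (chr11:70525107-70525406, plus strand) are given 5′ to 3′ with the match in capitals. They are shown because they are an inducible and a constitutive pair of subunits with a match. The match lies 97 to 89 bases before the annotated start in Psmb8, 47 to 39 bases before it in Psmb5, 9 bases to 1 base before it in Psmb6, and 10 to 18 bases after it in Psme1.
Psmb8: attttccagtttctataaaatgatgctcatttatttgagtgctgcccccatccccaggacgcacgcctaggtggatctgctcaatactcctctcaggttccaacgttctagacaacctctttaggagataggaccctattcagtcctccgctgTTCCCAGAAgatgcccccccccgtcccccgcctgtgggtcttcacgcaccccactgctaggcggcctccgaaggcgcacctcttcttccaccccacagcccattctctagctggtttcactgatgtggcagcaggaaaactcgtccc
Psme1: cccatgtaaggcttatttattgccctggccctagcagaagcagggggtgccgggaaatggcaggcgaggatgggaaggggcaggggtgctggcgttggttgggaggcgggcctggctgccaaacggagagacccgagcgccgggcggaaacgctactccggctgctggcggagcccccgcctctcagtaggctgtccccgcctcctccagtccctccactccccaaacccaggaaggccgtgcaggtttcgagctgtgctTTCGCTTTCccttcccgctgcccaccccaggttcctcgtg
Psmb5: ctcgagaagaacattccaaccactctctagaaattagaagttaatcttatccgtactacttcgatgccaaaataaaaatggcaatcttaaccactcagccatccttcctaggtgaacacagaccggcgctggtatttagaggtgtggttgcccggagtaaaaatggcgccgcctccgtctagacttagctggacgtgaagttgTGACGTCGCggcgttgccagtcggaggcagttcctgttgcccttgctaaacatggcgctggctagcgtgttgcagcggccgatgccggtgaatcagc
Psmb6: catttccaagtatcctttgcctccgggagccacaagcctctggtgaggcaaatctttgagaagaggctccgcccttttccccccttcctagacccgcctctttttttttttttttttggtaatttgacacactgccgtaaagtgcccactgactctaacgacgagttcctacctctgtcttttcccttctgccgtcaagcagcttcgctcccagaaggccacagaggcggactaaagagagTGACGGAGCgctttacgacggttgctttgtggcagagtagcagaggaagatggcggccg

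Psmb8 and Psmb9 lie in the MHC class II region of chromosome 17, between and beside the genes of the peptide transporter. On GRCm38, Psmb9 (34181987-34187764, minus strand), Tap1 (34187553-34197225, plus strand), Psmb8 (34197721-34201454, plus strand) and Tap2 (34203527-34216321, plus strand) span 34.3 kb. Psmb9 and Tap1 start head to head, and their gene models share 212 bases. Whether counting used strand is not given in the sources used here, so fragments of that stretch cannot be assigned with certainty. The promoter windows of Psmb9 and Tap1 share 275 bases, and the window of Psmb9 (chr17:34187281-34187580, minus strand) is printed because it also covers most of that of Tap1, which reads the other strand. It held none of the searched motifs, so it has no capitals.
Psmb9: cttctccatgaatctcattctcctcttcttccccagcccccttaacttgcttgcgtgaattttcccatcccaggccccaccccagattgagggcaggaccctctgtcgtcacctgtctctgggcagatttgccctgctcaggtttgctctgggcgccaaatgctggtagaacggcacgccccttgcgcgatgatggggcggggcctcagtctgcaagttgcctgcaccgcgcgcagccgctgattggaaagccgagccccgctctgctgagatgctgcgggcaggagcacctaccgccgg

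The catalytic members of the immunoproteasome had the highest old to young values of all subunits, but none passed the test across all genes. Psmb8, which takes the place of the chymotrypsin-like subunit Psmb5, had 5.04, 5.75, 4.42 and 3.93 FPKM in old pituitary, against 3.13, 1.53, 2.56 and 3.297 FPKM in young pituitary. Every old library stood above every young library. The means were 4.79 ± 0.790 and 2.63 ± 0.797 FPKM (SD, n = 4 each), and the log2 fold change was 0.88 (SE 0.25, adjusted p = 0.105 by limma). In fragments, these values rest on 222, 291, 233 and 188 in old and 147, 63, 143 and 165 in young libraries. They were recovered with a fitted exon length of 2736 bases, against 3381 bases in GENCODE M21, so the authors' model of the gene differed from that release.

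Another gene model, Gm20496, overlaps Psmb8 on chromosome 17, and its strand was not established here. In GENCODE M21, 498 of the 663 exonic bases of Gm20496 lie within exons of Psmb8 and the other 165 within exons of Tap2. It had 15.6, 18.9, 13.6 and 14.7 FPKM in old pituitary, against 12.02, 7.62, 8.56 and 13.1 FPKM in young pituitary, or 166, 232, 174 and 170 fragments against 137, 76, 116 and 159. Every old library stood above every young one and young replicate 2 was lowest, with a log2 fold change of 0.62 (SE 0.20, adjusted p = 0.138 by limma). Since all exonic bases of Gm20496 lie in exons of Psmb8 or Tap2, its values may hold fragments of either gene. They are not a separate observation beside Psmb8. In the shared bases, the gene model that a fragment came from cannot be told with certainty, so the level of Psmb8 is uncertain.

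Psmb9, which takes the place of the caspase-like subunit Psmb6 and is the least abundant inducible member, had 2.61, 2.51, 1.93 and 1.86 FPKM in old pituitary, against 1.72, 0.672, 0.856 and 1.48 FPKM in young pituitary. The ages did not overlap here either. Its log2 fold change was 0.93 (SE 0.29, 95% interval 0.26 to 1.61, adjusted p = 0.127 by limma). The fragments behind it were few, 119 to 170 in old and 37 to 108 in young libraries.

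Psmb10, which takes the place of the trypsin-like subunit Psmb7, had 8.05, 7.55, 7.52 and 6.84 FPKM in old pituitary, against 5.22, 4.33, 5.74 and 7.22 FPKM in young pituitary. Young replicate 4 stood above old replicate 4, so the ages overlapped. The log2 fold change was 0.43 (SE 0.16, adjusted p = 0.176 by limma). In GENCODE M21, Psmb10 overlaps the span of the gene model Gm16156 but shares 0 exonic bases with it.

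The inducible activator subunits showed smaller differences than the catalytic ones. Psme1, the alpha subunit of the activator, had 14.3, 14.9, 14.3 and 11.1 FPKM in old pituitary, against 12.4, 8.396, 13.98 and 15.5 FPKM in young pituitary. Psme2, the beta subunit, had 18.2, 18.7, 17.9 and 15.7 FPKM in old pituitary, against 15.0, 12.6, 19.4 and 17.7 FPKM in young pituitary. For both genes the young libraries lay on either side of the old ones. The log2 fold changes were 0.15 for Psme1 (SE 0.20, adjusted p = 0.708) and 0.14 for Psme2 (SE 0.15, adjusted p = 0.620), close to the median of all genes tested, 0.15, and the interval for Psme1 ran from -0.33 to 0.62. Without young replicate 2, the log2 fold change of Psme1 was -0.034. Psme1 shares 14 exonic bases with Emc9.

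**Figure D1:**
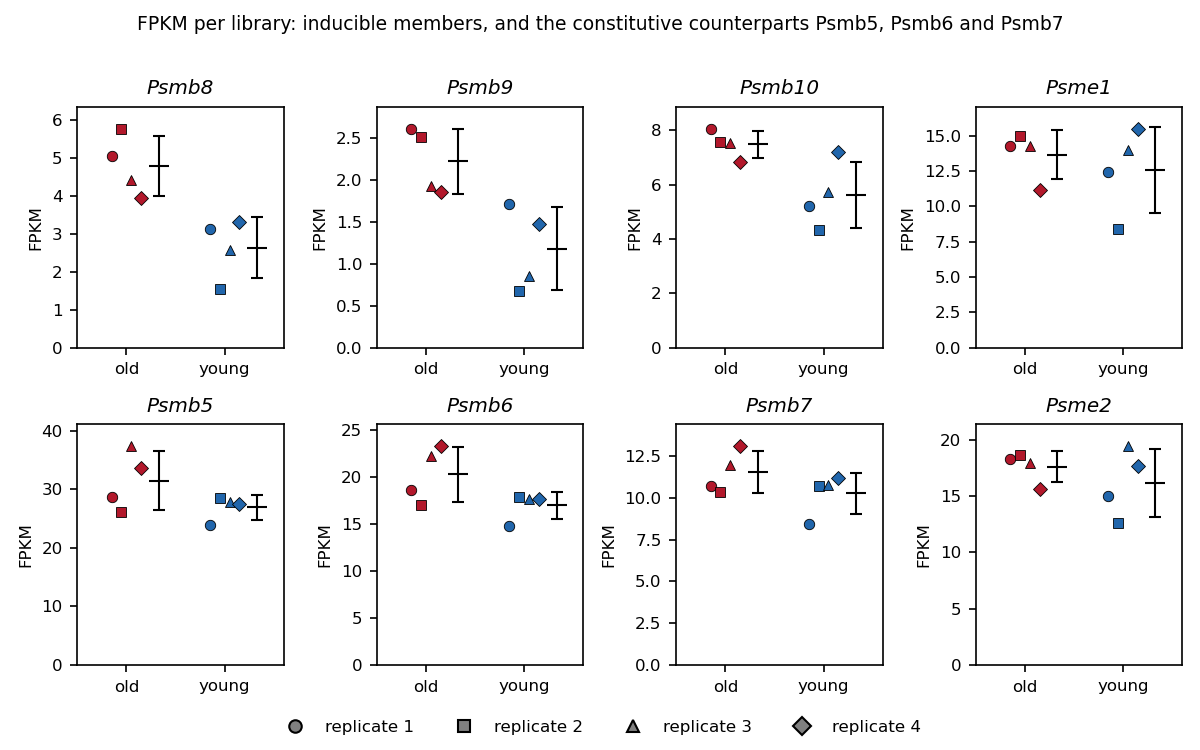
FPKM of the 5 inducible members and of the constitutive counterparts Psmb5, Psmb6 and Psmb7 in each library, old left of young; symbols give the replicate number and the bars the mean ± SD (n = 4 each). Old libraries sit above all young ones for Psmb8 and Psmb9, while for the other 6 genes the ages overlap.

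None of the 49 members that passed the filter of a mean of 0.1 FPKM was called by limma at an adjusted p under 0.05. Over all genes tested, 1.86% were called higher and 0.472% lower in old pituitary, 2.33% in either direction. At an unadjusted p under 0.05, 8 members were higher and 0 lower in old, a share of 49 that lies near the 18.0% of all genes that were higher (3.79% were lower). The 8 were Psmb8, Psmb9, Psmb10, the core chaperones Psmg1, Psmg2 and Psmg4, the lid subunit Psmd3 and Psme2b. Voom, which weights by fragments recovered from the FPKM, called 2 members higher, Psmb8 (log2 fold change 0.89, adjusted p = 0.0139) and Psmb9 (0.98, adjusted p = 0.0217), where it called 6.11% of all genes higher. It called 0 members lower, against 1.52% of all genes. In 6 members every old library stood above every young one, and 13.4% of all genes did so. These were Psmb8, Psmb9, Psmg1, Psmg2, Psmd3 and Psme2b, and in 0 members did every old library stand below every young one, against 2.06% of all genes.

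**Figure D2:**
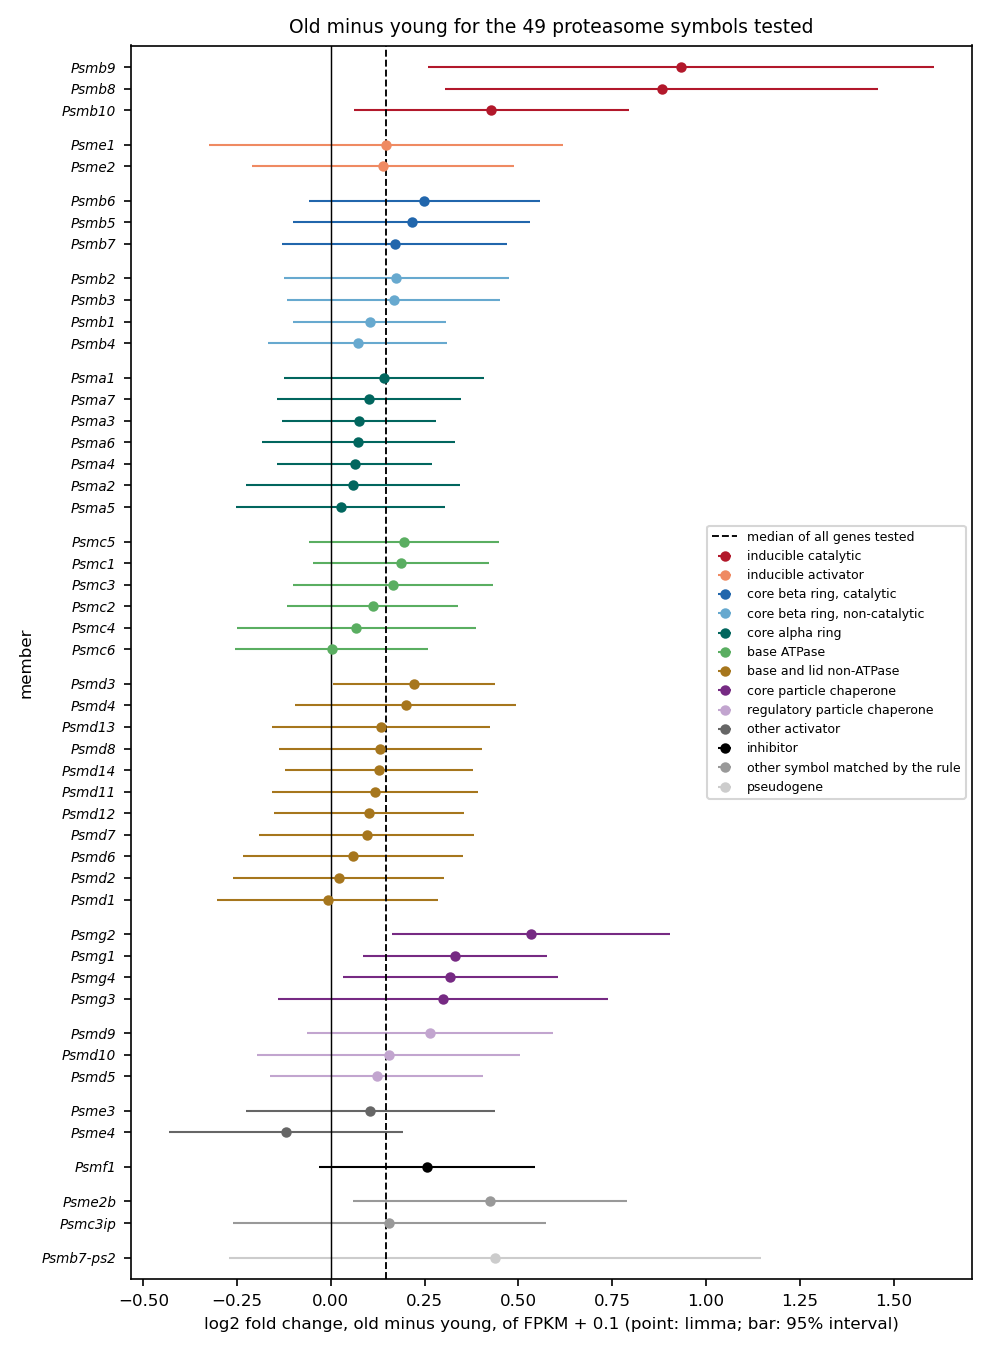
Log2 fold change of FPKM + 0.1, old minus young (points, limma, with 95% intervals), for the 49 members tested, grouped by role; the dashed line is the median of all 23498 genes tested, 0.15. Psmb9 and Psmb8 lie farthest right, at 0.93 and 0.88, the 7 alpha subunits all lie left of the dashed line, and the 4 core particle chaperones all lie right of it.

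The constitutive catalytic subunits that the inducible ones replace had higher FPKM than their counterparts in every library, with the smallest gap between Psmb7 and Psmb10. Psmb5 had 28.7, 26.1, 37.4 and 33.7 FPKM in old pituitary, against 23.8, 28.6, 27.9 and 27.4 FPKM in young pituitary. Psmb6 had 18.6, 17.05, 22.2 and 23.3 FPKM in old pituitary, against 14.8, 17.9, 17.6 and 17.6 FPKM in young pituitary. Psmb7 had 10.7, 10.4, 12.0 and 13.1 FPKM in old pituitary, against 8.42, 10.7, 10.8 and 11.2 FPKM in young pituitary. In all 3 genes old replicates 3 and 4 were the highest libraries, and old replicate 2 lay within the young range. The log2 fold changes were 0.21 for Psmb5 (SE 0.14, adjusted p = 0.393), 0.25 for Psmb6 (SE 0.13, adjusted p = 0.314) and 0.17 for Psmb7 (SE 0.13, adjusted p = 0.481).

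A ratio of FPKM within a library does not depend on its scaling, so each inducible subunit was set against its counterpart. The Psmb8 to Psmb5 ratio was 0.175, 0.220, 0.118 and 0.116 in old pituitary, against 0.131, 0.0535, 0.0918 and 0.120 in young pituitary. Old replicates 3 and 4 fell within the young range. The log2 difference of old minus young was 0.69 (SE 0.37, exact permutation test over 4 against 4 libraries, two-sided, p = 0.171, 0.257 after Benjamini-Hochberg adjustment over 3 ratios). Without young replicate 2 the difference was 0.42.

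The Psmb9 to Psmb6 ratio was 0.141, 0.147, 0.0868 and 0.0799 in old pituitary, against 0.116, 0.0376, 0.0487 and 0.0839 in young pituitary. The log2 difference was 0.75 (SE 0.43, exact permutation p = 0.143, adjusted 0.257), and it was 0.49 without young replicate 2. The Psmb10 to Psmb7 ratio was 0.750, 0.729, 0.627 and 0.522 in old pituitary, against 0.620, 0.405, 0.532 and 0.646 in young pituitary, with a log2 difference of 0.26 (SE 0.19, exact permutation p = 0.286, adjusted 0.286). Without young replicate 2 that difference was 0.12. All 3 ratios overlapped between the ages, and the smallest p that 4 against 4 libraries allow is 0.0286.

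Expressed as a share of the pair, Psmb8 made up 13.5 ± 3.68% of Psmb8 plus Psmb5 in old pituitary and 8.95 ± 2.91% in young pituitary (SD, n = 4 each). Psmb9 made up 10.1 ± 2.85% of its pair in old and 6.61 ± 3.09% in young pituitary. Psmb10 made up 39.5 ± 3.93% in old and 35.3 ± 4.72% in young pituitary. The constitutive subunit therefore held the larger share of each pair at both ages, on the scale of FPKM. These shares depend on the exon lengths behind the FPKM, such as fitted lengths of 2736 bases for Psmb8 and 871 for Psmb5.

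**Figure D3:**
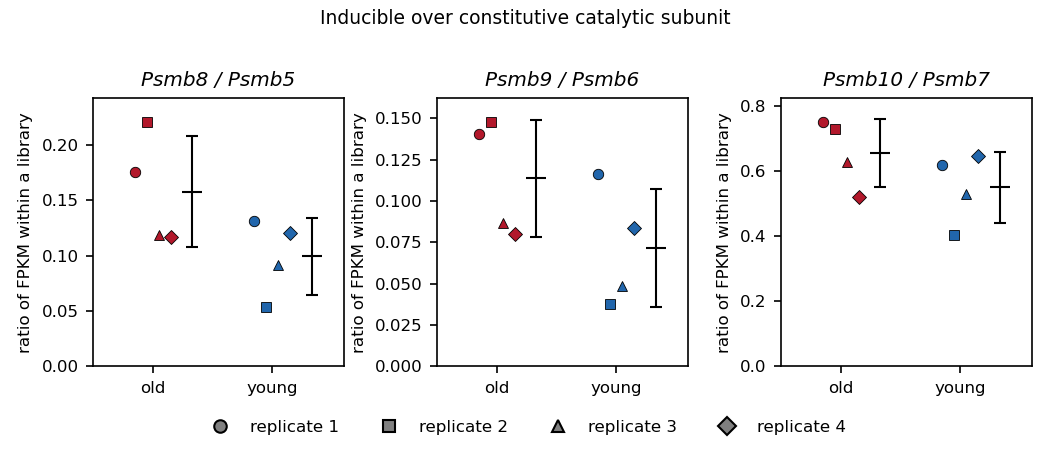
Ratio of the FPKM of each inducible catalytic subunit to that of its constitutive counterpart in each library, old left of young, with the mean ± SD (n = 4 each). Old replicates 1 and 2 have the highest ratios in all 3 panels, and old replicates 3 and 4 lie within the young range.

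The 31 constitutive subunits all passed the filter, and none was called by limma or voom. Psmd3 alone of them had an unadjusted p under 0.05 by limma and was higher in old. Of all genes tested, 18.0% were higher and 3.79% lower at that level. Limma called 2.33% of all genes in either direction, and voom 6.11% higher and 1.52% lower. The log2 fold changes of the constitutive subunits ran from -0.0090 to 0.25 with a median of 0.11. Of the 31, 30 were above 0, as were 70.0% of all genes tested, but 10 were above the median of all genes, 0.15. After median of ratios scaling, the median of all genes was 0.0075 and that of the constitutive subunits -0.038, with 10 of 31 above 0. With the hormone and ribosomal RNA repeat genes taken out of the library total, these medians were 0.024 and -0.022, and 11 of 31 were above 0. The direction of the constitutive group as a whole thus depended on the scaling, whereas Psmb8, at 0.74 and 0.76, and Psmb9, at 0.79 and 0.84, stayed above 0 under both.

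In the alpha rings, which gate the entry to the core, the log2 fold changes of Psma1 to Psma7 ran from 0.027 to 0.14 with a median of 0.073, and 0 of 7 lay above the median of all genes. Psma1, the highest, had 10.3, 11.1, 11.6 and 12.0 FPKM in old pituitary, against 9.62, 8.92, 10.7 and 11.8 FPKM in young pituitary. Psma5, the lowest, had 17.3, 16.7, 17.7 and 17.4 FPKM in old pituitary, against 15.4, 14.6, 18.3 and 20.03 FPKM in young pituitary. The old libraries lay inside the young range of Psma5, and its log2 fold change was 0.027 (SE 0.12, adjusted p = 0.919).

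In the beta rings, the 4 subunits without an active site ran from 0.071 to 0.17. Psmb2 had 22.2, 21.4, 26.2 and 26.4 FPKM in old pituitary, against 20.5, 18.2, 24.6 and 21.98 FPKM in young pituitary. Psmb4 had 35.7, 36.1, 43.0 and 43.5 FPKM in old pituitary, against 36.5, 37.2, 37.0 and 39.4 FPKM in young pituitary. Both genes were highest in old replicates 3 and 4, as the catalytic beta subunits were. Psmb1 had the highest FPKM of all members, a mean of 45.1 over the 8 libraries, followed by Psmb4 at 38.5, Psma2 at 35.3 and Psmb5 at 29.2. This order depends on exon length, which for Psmb1 was fitted as 1036 bases, against 4595 in GENCODE M21.

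The base of the regulatory particle holds a ring of 6 ATPases that unfold the substrate. Their log2 fold changes ran from 0.0017 to 0.19. Psmc5 had 21.7, 22.2, 28.0 and 24.2 FPKM in old pituitary, against 20.5, 19.6, 21.5 and 22.1 FPKM in young pituitary. Psmc6 had 18.1, 17.5, 16.1 and 15.9 FPKM in old pituitary, against 14.6, 16.2, 18.3 and 18.7 FPKM in young pituitary. In Psmc6, the only one of the 6 in which old replicates 3 and 4 were the lowest old libraries, the means of the ages were equal at 16.9 FPKM.

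Among the 11 other subunits of the base and lid, log2 fold changes ran from -0.0090 to 0.22. Psmd3, a scaffold of the lid, had 13.3, 12.7, 14.3 and 12.9 FPKM in old pituitary, against 11.1, 11.1, 10.9 and 12.7 FPKM in young pituitary. The lowest old value, 12.698, exceeded the highest young value, 12.670, by a margin far smaller than the spread within either age. Its log2 fold change was 0.22 (SE 0.093, adjusted p = 0.218 by limma) and 0.071 after median of ratios scaling. Psmd1, a large scaffold of the base, had 9.76, 10.3, 11.4 and 11.8 FPKM in old pituitary, against 9.67, 9.66, 12.8 and 11.6 FPKM in young pituitary, and a log2 fold change of -0.0090 (SE 0.13, adjusted p = 0.978).

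The order of the old libraries differed between the constitutive subunits and the inducible catalytic ones. Averaged over the 31 constitutive subunits, log2(FPKM + 0.1) stood -0.040, -0.023, 0.17 and 0.12 from the mean of the 8 libraries in old replicates 1 to 4, against -0.21, -0.090, 0.013 and 0.057 in young replicates 1 to 4. Averaged over Psmb8, Psmb9 and Psmb10, it stood 0.52, 0.53, 0.28 and 0.17 in old replicates, against -0.11, -0.93, -0.46 and 0.0053 in young replicates. Old replicates 3 and 4 had the highest constitutive averages and the lowest inducible averages of the old libraries, although these inducible averages still stood above those of every young library. The median deviation of all genes, -0.0021, 0.079, 0.13 and 0.094 in old and -0.14, -0.16, -0.026 and 0.036 in young replicates, was also highest in old replicate 3, and its part in the constitutive pattern was not tested.

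Inducible members varied more between young libraries than constitutive subunits did. The median coefficient of variation was 12.5% in old and 24.3% in young libraries for the 5 inducible members. For the 31 constitutive subunits it was 9.07% in old and 10.2% in young libraries. For all genes tested it was 16.8% in old and 19.1% in young libraries. Young replicate 2 was the lowest of the young libraries in each of the 5 inducible members.

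**Figure D4:**
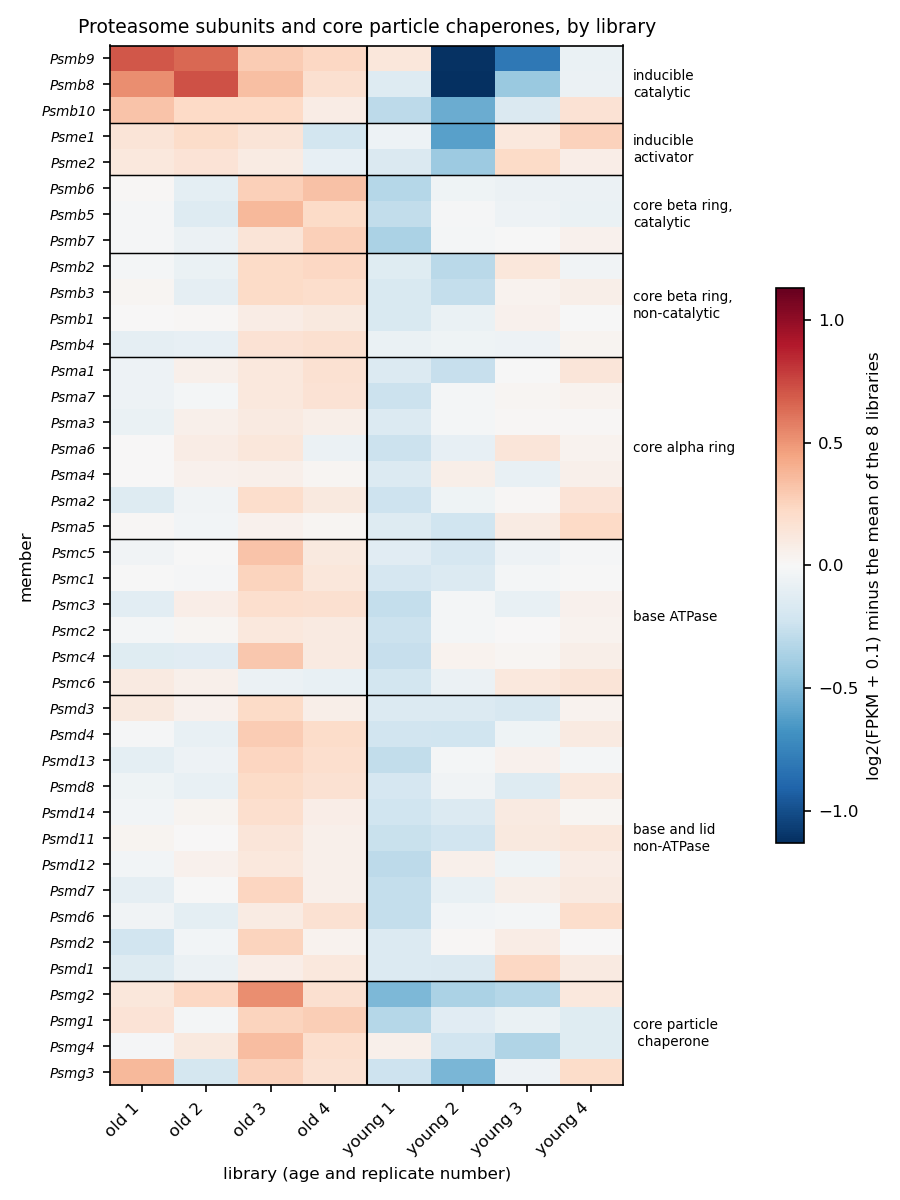
Log2(FPKM + 0.1) of 40 subunits and core particle chaperones in each library, as the difference from the mean of the 8 libraries, old columns left of young ones and genes grouped by role. The inducible catalytic rows are highest in old replicates 1 and 2 and lowest in young replicate 2, while 25 of the 31 constitutive rows are highest in old replicate 3 or 4 and 21 are lowest in young replicate 1.

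Among the groups of subunits and chaperones, those that build the core had the highest median log2 fold change, 0.32, after the inducible catalytic subunits. Psmg1 and Psmg2 form a pair that scaffolds the alpha ring, as do Psmg3 and Psmg4. Psmg2 had 6.04, 6.49, 7.94 and 6.26 FPKM in old pituitary, against 3.84, 4.27, 4.39 and 5.99 FPKM in young pituitary, a log2 fold change of 0.53 (SE 0.16, adjusted p = 0.119 by limma and 0.0603 by voom). Psmg1 had 5.50, 4.87, 5.91 and 6.00 FPKM in old pituitary, against 3.94, 4.50, 4.70 and 4.47 FPKM in young pituitary, a log2 fold change of 0.33 (SE 0.11, adjusted p = 0.136). In both genes the ages did not overlap. After median of ratios scaling their log2 fold changes were 0.38 and 0.18.

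Psmg4 had 8.30, 9.08, 10.7 and 9.60 FPKM in old pituitary, against 8.71, 7.20, 6.63 and 7.60 FPKM in young pituitary. Psmg3 had 1.83, 1.197, 1.69 and 1.58 FPKM in old pituitary, against 1.17, 0.942, 1.34 and 1.63 FPKM in young pituitary. Here the ages overlapped, and the log2 fold changes were 0.32 for Psmg4 (SE 0.12, adjusted p = 0.191) and 0.30 for Psmg3 (SE 0.19, adjusted p = 0.392). All 4 core chaperones lay above the median of all genes, and after median of ratios scaling all 4 were still above 0. The chaperones of the regulatory particle base had lower values: 0.26 for Psmd9 (adjusted p = 0.317), 0.15 for Psmd10 (adjusted p = 0.584) and 0.12 for Psmd5 (adjusted p = 0.591).

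In Psmd9, the base chaperone with the largest fold change, FPKM were 1.53, 1.94, 1.94 and 1.98 in old pituitary, against 1.29, 1.67, 1.36 and 1.79 in young pituitary. In Psmd5, the one with the smallest, FPKM were 2.91, 2.90, 3.03 and 3.33 in old pituitary, against 2.41, 2.52, 3.01 and 3.27 in young pituitary. Both overlapped between the ages. Pomp, the maturation factor that seats the beta ring and whose symbol lies outside the rule, had 4.69, 4.84, 6.23 and 5.85 FPKM in old pituitary, against 4.93, 4.98, 5.41 and 5.85 FPKM in young pituitary, a log2 fold change of 0.023 (adjusted p = 0.935).

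The alternative activators showed no common direction. Psme3, the nuclear activator, had 7.69, 7.43, 9.92 and 8.08 FPKM in old pituitary, against 6.78, 6.88, 7.90 and 9.25 FPKM in young pituitary. Psme4, an activator known from the degradation of histones, had 5.40, 6.45, 5.65 and 6.00 FPKM in old pituitary, against 5.07, 6.43, 7.09 and 7.16 FPKM in young pituitary. Their log2 fold changes were 0.11 (SE 0.14, adjusted p = 0.699) and -0.12 (SE 0.13, adjusted p = 0.632), and Psme4 had the lowest of all members. Psmf1, which inhibits the core, had 3.96, 3.02, 3.40 and 2.97 FPKM in old pituitary, against 2.66, 2.50, 2.83 and 3.08 FPKM in young pituitary, a log2 fold change of 0.26 (SE 0.12, adjusted p = 0.278).

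Psme2b, a copy of Psme2 on chromosome 11, had 3.86, 3.296, 4.90 and 3.21 FPKM in old pituitary, against 3.20, 2.70, 2.46 and 2.81 FPKM in young pituitary. The lowest old value, 3.210 FPKM, lay just above the highest young value, 3.197 FPKM, and the log2 fold change was 0.42 (SE 0.16, adjusted p = 0.176). Fragments shared with Psme2 could fall on either copy, and Psme2b also overlaps other gene models, so its values are uncertain. Psmc3ip, a recombination factor that shares the start of its symbol with an ATPase gene and is no proteasome subunit, had a log2 fold change of 0.16 (SE 0.18, adjusted p = 0.642), with 2.23 to 3.12 FPKM in old and 1.83 to 2.99 FPKM in young libraries.

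The tissue-restricted core subunits were at or near the limit of detection. Psma8, the alpha subunit of the testis, had 5 fragments over the 4 old libraries and 2 over the 4 young libraries. Psmb11, the beta subunit of the thymic cortex, had 0 fragments in the old libraries and 1 in the young libraries. Where a library shows 0 fragments, as many as 3 remain possible by counting error alone. The pseudogenes Psmb5-ps, Psmb6-ps and Psmb6-ps2 had 2, 4 and 3 fragments over the old libraries, and 2, 0 and 0 over the young libraries. These 5 members fell below the filter. Psmb7-ps2, with 11 fragments over the old and 6 over the young libraries, passed it and had a log2 fold change of 0.44 (SE 0.30, adjusted p = 0.437).

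Other genes of the pathway were taken from fixed lists. Of 14 measured proteasome partners (shuttle, deubiquitinase and transcription factors), 0 were called by limma or voom and 0 had an unadjusted p under 0.05, and their median log2 fold change was 0.11. Nfe2l1, the transcription factor that raises constitutive subunits, had 44.4 to 54.0 FPKM in old and 38.3 to 44.7 FPKM in young libraries, a log2 fold change of 0.22 (adjusted p = 0.245). Adrm1, the ubiquitin receptor of the base, had a log2 fold change of 0.029 (adjusted p = 0.877). Of 15 genes that make ubiquitin or carry it to the proteasome, 0 were called by limma, 5 had an unadjusted p under 0.05, all higher in old, and voom called 2 higher. Of all genes tested, 18.0% were higher at an unadjusted p under 0.05, and voom called 6.11% higher. The median log2 fold change of the 15 was 0.10. The polyubiquitin gene Ubb, at 0.35 (adjusted p = 0.179), did not pass.

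The genes that handle the peptides of the immunoproteasome included calls. Of 11 class I and peptide loading genes, limma called 2 higher in old, H2-K1 (log2 fold change 0.87, adjusted p = 0.0262) and H2-D1 (0.89, adjusted p = 0.0282), and voom called 6 higher. Over all genes, limma called 1.86% higher and voom 6.11%. Tap1, the neighbour of Psmb9 and Psmb8, had 2.28, 2.94, 2.15 and 2.10 FPKM in old pituitary, against 1.74, 1.38, 1.76 and 1.74 FPKM in young pituitary. Its ages did not overlap, and the log2 fold change was 0.48 (SE 0.14, adjusted p = 0.110 by limma and 0.0424 by voom). Tap2 had a log2 fold change of 0.40 (adjusted p = 0.145) and B2m, the light chain of class I, of 0.71 (adjusted p = 0.0586). Their ages did not overlap either.

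Of 11 interferon pathway genes measured, voom called 3 higher in old, against 6.11% of all genes. Limma called 1 higher, against 1.86% of all genes. This was Irf8 (0.82, adjusted p = 0.0269 by limma), a transcription factor of myeloid cells. The next smallest adjusted p were those of Stat2 (0.44, adjusted p = 0.0513) and the receptor chain Ifngr1 (0.39, adjusted p = 0.0989). Irf1, a direct activator of Psmb9 and Tap1, had a log2 fold change of 0.36 (adjusted p = 0.237) and Nlrc5, the activator of class I genes, of 0.33 (adjusted p = 0.321). Ifng itself was listed at 0 in every old library and in 3 of the 4 young libraries.

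The summed macrophage markers of the old libraries did not overlap those of the young and were higher, and immune cells carry the immunoproteasome as a rule. The mice had been perfused to clear blood before the glands were taken, by the study's account. Over all genes tested, limma called 1.86% higher in old and voom 6.11%. Of 12 macrophage markers measured, 2 were called higher in old by limma, Lyz2 (log2 fold change 1.31, adjusted p = 0.0482) and C1qb (1.06, adjusted p = 0.0255), and 11 by voom. Over the 13 of the list that were found, the summed level was 88.1 to 117 FPKM in old and 39.6 to 68.7 FPKM in young libraries. Of 6 general leukocyte markers, 1 was called by limma, Ptprc (1.01, adjusted p = 0.0282), and 6 by voom, with sums of 11.1 to 15.8 FPKM in old and 4.74 to 8.64 FPKM in young libraries. In young replicate 2, where the inducible members were lowest, both sums were the lowest of the 8 libraries, at 39.6 and 4.74 FPKM. That library was also lowest in the sums of the interferon genes (38.7 FPKM) and proteasome partners (127 FPKM), and in the median deviation of all genes (-0.16). Among old libraries, replicate 2 had the highest Psmb8 but the lowest leukocyte sum (11.1 FPKM). Replicate 4 had the lowest Psmb8 and the lowest macrophage sum (88.1 FPKM). No macrophage or leukocyte marker was at 0 in all libraries. Their part in the levels of Psmb8 and Psmb9 was not tested, and in whole glands a change in the number of cells of a type and a change in RNA per cell cannot be told apart.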

How the data were processed

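Whole pituitary of old and young C57BL/6 mice was profiled by bulk mRNA sequencing, in 4 libraries per age. The study's methods and the submitters' notes state that GRCm38 was the genome, STAR (2.6.1a) the aligner and featureCounts the counter of paired fragments over Ensembl exons. The authors then computed FPKM in edgeR (3.28.1), and the deposited values are FPKM only. The annotation release is not given in the sources used here, nor is strand.

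The study tested counts. Here limma (version 3.58.1, R 4.3.3) was fitted to log2(FPKM + 0.1), without trend or robust estimation, over 23498 genes (mean FPKM of 0.1 or more), and p-values were adjusted over all of them (Benjamini-Hochberg, threshold 0.05). For ratios within libraries, a two-sided exact permutation test was used. Fragments were computed back from FPKM, exon lengths of GENCODE M21 and library totals. With these lengths, 92.3 to 93.2% of low values were whole within 0.01, and for 5519 rows, Psmb8 and Psmb9 among them, the length was fitted, as the smallest for which all 8 values came out whole. Floors cover counting error only. Libraries of 1 age all differed by more than sampling noise. The fit was tested on simulated data.

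Members and lists were chosen with earlier results of these data known. Per library values are given for the inducible members, Psmb5, Psmb6 and Psmb7, the extremes of each role, and any member that passed; of list genes, those that passed, up to 4 per list by adjusted p, and 9 set genes. Some other values were added after they had been seen, such as those of Psmg1, Psmg4 and Gm20496. Some genes named by this rule are not reported here. Alternatives were pseudocounts of 1 and 0.01, no filter or a mean of 1 FPKM, median of ratios scaling, library totals without hormone and ribosomal RNA repeat genes, a mean-variance trend, voom, a replicate block, and leaving out each library. Python 3.11.15 with numpy 2.4.6, pandas 2.3.3 and matplotlib 3.10.9 was also used.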

Additional observations from a re-analysis of the deposited data

Results flagged for a closer look

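Each member of the 49 tested and each of the 3 ratios was checked for a library far from the other 3 of its age, by the gap to the nearest library over the whole range of the 4 (Dixon's 95% critical value for 4 values). Of 104 sets of 4 values, 5 were past it, and chance alone gives about 1 in 20.

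Young replicate 1 was low in Psmb6, with 14.8 FPKM against a median of 17.6 FPKM in the other young libraries, and in the ATPase gene Psmc4, with 10.3 against 12.7 FPKM. Old replicate 1 was low in 2 chaperones of the base, Psmd10, with 3.64 against 5.08 FPKM, and Psmd9, with 1.53 against 1.94 FPKM. Young replicate 4 was high in Psmd3, with 12.7 against 11.1 FPKM. None of the 5 inducible members had such a library.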

How the results depend on the processing

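No constitutive subunit and, except by voom, no inducible member was called under any alternative; voom called 2 inducible members. The adjusted p of Psmb8 ran from 0.0139 by voom to 0.236 with the replicate number as a block, and that of Psmb9 from 0.0217 by voom to 0.255 without young replicate 3. Leaving out single libraries gave log2 fold changes of 0.65 to 1.01 for Psmb8 and 0.72 to 1.13 for Psmb9. Both were lowest without young replicate 2.

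The number of genes called in all, 547, was 827 with a pseudocount of 1, 343 with no filter, 919 with a mean of at least 1 FPKM, 359 without the hormone and ribosomal RNA repeat genes, 837 with a mean-variance trend, 1791 by voom, and 97 to 490 with 1 library left out. After median of ratios scaling, 208 genes were higher and 215 lower, against 436 and 111. The median of the constitutive subunits, 0.11, was -0.038 after median of ratios scaling and -0.022 without the hormone and ribosomal RNA repeat genes.

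Most constitutive subunits changed sign with the scaling, since 30 of 31 were above 0 at first, 10 after median of ratios scaling and 11 without the hormone and ribosomal RNA repeat genes. Among the members followed under every alternative, the log2 fold changes that changed sign after median of ratios scaling were -0.0047 for Psme1, -0.011 for Psme2, -0.044 for Psme3, -0.024 for Psmd5, -0.0082 for Psma1, -0.12 for Psma5, -0.080 for Psmb4 and -0.15 for Psmc6. Without the hormone and ribosomal RNA repeat genes those of the same members were -0.028 for Psme3, -0.0083 for Psmd5, -0.11 for Psma5, -0.064 for Psmb4 and -0.13 for Psmc6, and by voom -0.0025 for Psmc6. With 1 library left out, the values ran from -0.034 to 0.26 for Psme1, -0.044 to 0.11 for Psma5, -0.066 to 0.051 for Psmc6 and -0.063 to 0.069 for Psmd1. The cause was not tested.

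Libraries with the same replicate number did not deviate together, the correlations being 0.057, -0.088, 0.0088 and -0.028, so the numbers were not taken as pairs. With the replicate number as a block, 4 genes were called in all and 0 members. The exact block p was 0.25 for Psmb8 to Psmb5, 0.25 for Psmb9 to Psmb6 and 0.5 for Psmb10 to Psmb7, where 0.125 is the smallest that 4 pairs allow. Leaving out single libraries gave log2 differences of 0.42 to 0.86, 0.49 to 1.03 and 0.12 to 0.37 for these 3 ratios.

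Few fragments lie behind Psma8, Psmb11 and the pseudogenes, which limits what can be said of them. Strand is unknown, and 26 of the 54 members overlap another gene model, Psmb10 among them without a shared exon.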

Other observations

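Other cell type lists were counted in the same libraries. Over all genes tested, limma called 1.86% higher and 0.472% lower in old, and voom 6.11% and 1.52%. At an unadjusted p under 0.05 by limma, 18.0% of all genes were higher and 3.79% lower. In 2.06% of all genes every old library stood below every young one. Of 6 B cell and plasma cell markers measured, limma called 3 higher in old, Igha, Igkc and Jchain, and 0 lower. Voom called 4 higher and 2 lower. The lower ones were Cd79b (log2 fold change -0.70 and adjusted p = 0.0671 by limma, voom adjusted p = 0.0480) and Sdc1 (-0.66 and 0.115 by limma, voom 0.0230), in which every old library stood below every young one. Over all 10 listed genes the summed level was 33.1 to 52.1 FPKM in old and 5.90 to 8.22 FPKM in young libraries. Of 5 T and NK cell markers measured, limma called 1 higher, Klrd1 (adjusted p = 0.0380), and voom called 0 (Klrd1 adjusted p = 0.124). Over all 12 listed genes the sums were 2.57 to 2.75 FPKM in old and 0.788 to 2.04 FPKM in young libraries. Young replicate 2, the lowest young library in all 5 inducible proteasome members, also had the lowest sum in both lists. Its B cell and plasma cell sum was led by Sdc1 (3.09 FPKM) and Cd79b (1.58 FPKM), the 2 genes that voom called lower in old. Sdc1, Cd79b and Igkc were lowest of the young libraries there, but Igha (0.199 FPKM) and Cd79a (0.456 FPKM) were highest. A link between these sums and the inducible members was not tested. Of 8 endothelial markers 0 were called by limma, with 1 at an unadjusted p under 0.05 and 1 called by voom. Of 5 red blood cell genes 0 were called by limma or voom, and 0 had an unadjusted p under 0.05. Their sums ranged within each age, from 15.9 to 124 FPKM in old and from 13.0 to 110 FPKM in young libraries. Of 10 hormone cell genes, 2 were called lower in old, Gh and Lhb.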
